A study of Mus musculus with 4 samples.

Results

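The genes described are 10 mouse genes of the actin cytoskeleton and its neighbours. They are the actins Actb and Actg1, the actin monomer binders Pfn1, Cfl1 and Tmsb4x, the crosslinkers Flna and Lcp1, the coronin Coro1a, the integrin-actin link Tln1 and the intermediate filament gene Vim. They were taken by gene name from the 23936 gene rows of the deposited table. The set was put together with the values of these 4 libraries known, chosen by the large differences of Flna, Coro1a and Vim, so those values are a description and not a test. Of the 10 genes, 8 averaged at least 1 FPKM across all libraries and count as measured, while Lcp1 and Tmsb4x did not. FPKM is the number of fragments per kilobase of a transcript in relation to all mapped fragments, so levels can be set beside each other per length.

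The study asked what loss of CHD7, a chromatin-remodelling helicase, does to erythroid maturation of G1ER cells. G1ER is a mouse erythroblast line without its own GATA1 that carries a fusion of GATA1 with the estrogen receptor, and beta-estradiol switches the fusion on and starts maturation. Wild-type cells and Chd7-/- cells were sequenced at 0 h and at 24 h, with 1 library in each of the 4 groups. All 4 groups carry the GATA1 fusion and grew in medium with erythropoietin and stem cell factor, and the estradiol concentration stated in the growth protocol was 1e-07 M. Titles gave the time, since the label for treatment says estradiol even at 0 h. Whether the knockout is a single clone is not given in the sources used here. With no replicates, no p-value was computed, and every difference below is one between these libraries.

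Actin filaments form the cortex under the plasma membrane. Profilin feeds actin monomers to growing filament ends, cofilin severs old filaments, and thymosin beta-4 holds monomers in reserve. Filamin A and L-plastin crosslink filaments, coronin 1A binds them at the cortex of blood cells, and talin ties integrins to them. Vimentin builds a separate filament network that mammalian erythroid cells lose as they mature, and red cells end with a spectrin-based skeleton whose short actin filaments are bundled by dematin and capped by tropomodulin.

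Promoter windows of RefSeq (GRCm38.p6, from 250 bases before to 50 after an annotated start) were found for 9 of the 10 genes, 11 windows in all, and Actb had none. Each window below is 5′ to 3′ on the gene's strand. Those of Flna, Coro1a and Vim are shown because these 3 genes carried the largest differences, and that of Actg1 because its level moved apart from that of Actb. Capitals mark GC boxes (GGGCGG) for Flna at chrX:74246485-74246784 and Coro1a at chr7:126704767-126705066, both on the minus strand. They mark TATAAA for Vim at chr2:13574061-13574360 on the plus strand, and the CArG box, the site of serum response factor, for Actg1 at chr11:120348446-120348745 on the minus strand. Every motif was searched on both strands.
Flna: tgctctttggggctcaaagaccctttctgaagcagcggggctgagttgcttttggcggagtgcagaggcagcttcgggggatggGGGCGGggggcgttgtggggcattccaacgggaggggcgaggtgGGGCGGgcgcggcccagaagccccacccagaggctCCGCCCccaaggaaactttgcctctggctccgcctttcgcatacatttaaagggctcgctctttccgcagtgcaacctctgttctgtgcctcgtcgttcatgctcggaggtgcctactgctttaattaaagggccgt
Coro1a: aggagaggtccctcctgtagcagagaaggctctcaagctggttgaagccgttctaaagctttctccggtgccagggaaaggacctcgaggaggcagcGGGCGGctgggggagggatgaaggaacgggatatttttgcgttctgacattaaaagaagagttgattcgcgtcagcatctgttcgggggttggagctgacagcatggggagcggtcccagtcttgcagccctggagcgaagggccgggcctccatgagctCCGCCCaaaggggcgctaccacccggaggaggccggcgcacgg
Vim: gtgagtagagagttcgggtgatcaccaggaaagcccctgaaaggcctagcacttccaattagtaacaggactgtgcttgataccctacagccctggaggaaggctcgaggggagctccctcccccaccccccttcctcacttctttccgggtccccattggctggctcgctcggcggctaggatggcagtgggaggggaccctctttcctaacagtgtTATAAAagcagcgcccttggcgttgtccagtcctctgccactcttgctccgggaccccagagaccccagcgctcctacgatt
Actg1: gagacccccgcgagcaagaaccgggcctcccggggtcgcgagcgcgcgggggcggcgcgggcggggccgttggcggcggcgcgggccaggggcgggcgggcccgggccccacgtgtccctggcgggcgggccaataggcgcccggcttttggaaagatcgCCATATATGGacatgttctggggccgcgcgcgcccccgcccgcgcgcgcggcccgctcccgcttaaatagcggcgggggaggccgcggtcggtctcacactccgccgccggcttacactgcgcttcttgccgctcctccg

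The Flna window held 3 GC boxes, starting at bases -166, -122 and -87 from the annotated start, and it lies inside the annotated span of the gene. The Coro1a window shown, the 1st of 2, held GC boxes at -153 and 8, and the Vim window held TATAAA at -32. The 2nd Coro1a window, not shown, held a GC box at 41. The Actg1 window held a CArG box at -90 and 6 GC boxes, which are left in lower case, those at -161 and -157 overlapping. GATA motifs (the letters GATA with A or else T before them and A or else G after them) were matched in the windows of Tmsb4x (2), Cfl1 (1) and Pfn1 (1). They were not matched in those of Flna, Coro1a or Vim, and the Tln1 window held none of the 4 motifs. Among all 32851 windows of the same length, 29.8% held a GATA motif, 35.7% a GC box, 13.6% TATAAA and 1.63% a CArG box. These are letter matches in a 300-base window and say nothing of factor binding.

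Levels differed widely between the genes. Actb was at 1039 FPKM or above in every library, Cfl1 and Pfn1 came next at 273 or above, Flna, Tln1, Coro1a and Actg1 reached between 25.3 and 62.9 in their highest library, and Vim reached 8.00. The order from Actb to Cfl1 to Pfn1 was the same in all 4 libraries. Flna was above Tln1 in both 0 h libraries and below it in both 24 h libraries. Log2 ratios below are of FPKM + 1, a scale on which changes of weakly expressed genes look smaller than they are. A gene is called higher or lower when this ratio reached 2-fold. The ± after a ratio is the 95% half-width from counting alone, computed at depths approximated from the steps of low FPKM values, between 15.64 M and 18.82 M fragments per library (M, mega). It holds no variation between cultures. Because these are bulk libraries, fewer cells of a type and less RNA per cell cannot be told apart.

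**Figure D1:**
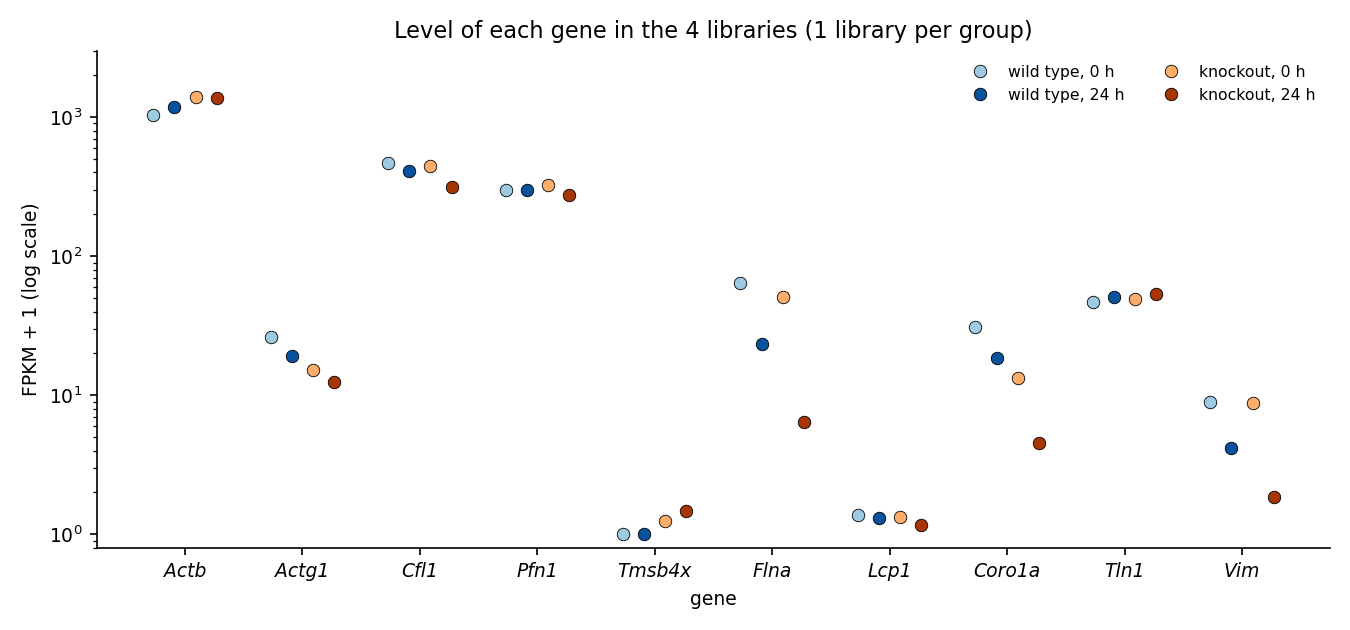
Levels of the 10 genes in the 4 libraries, as FPKM + 1 on a log axis, with 1 point per library. Flna, Coro1a and Vim are lowest in the knockout at 24 h (5.39, 3.57 and 0.865 FPKM), while Tln1 lies between 45.5 and 52.1 FPKM throughout.

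The share of all 8964 measured genes past the 2-fold limit sets the background for the counts. From 0 h to 24 h, 1.86% of genes were called higher and 1.06% lower in wild-type cells, and 3.38% higher and 3.64% lower in Chd7-/- cells. Between knockout and wild type, 0.435% were higher and 0.647% lower at 0 h, and 0.714% higher and 1.14% lower at 24 h. For the difference between the responses to estradiol, taken as the knockout's ratio minus that of wild type, 0.602% were higher and 0.625% lower. Of the 8 measured genes, 2 were lower over time in wild-type cells (Flna and Vim), and 3 in Chd7-/- cells (Flna, Coro1a and Vim). Against wild type, 1 was lower in the knockout at 0 h (Coro1a) and 3 at 24 h (Flna, Coro1a and Vim), and 2 had a lower response (Flna and Vim). None of the 8 was called higher in any of the 5 comparisons. Since the genes were chosen on these contrasts, nothing is read from the counts against the background.

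Median log2 ratios of the 8 genes were -0.32 over time in wild-type cells and -0.41 in Chd7-/- cells, beside -0.11 and -0.12 for all measured genes. Between genotypes they were -0.05 at 0 h and -0.51 at 24 h, beside -0.07 and -0.09. For the difference of responses the median was -0.29, beside -0.02. The split between higher and lower calls over all genes depended on scaling. On the FPKM scale 48.2% of the knockout's calls over time were higher. With every library scaled to the same sum (TPM) 98.7% were, at 3043 higher against 39 lower. In wild type the share was 63.7% by FPKM and 84.6% by TPM. Between genotypes at 0 h it was 40.2% by FPKM and 2.46% by TPM, and for the difference of responses 49.1% and 98.2%. TPM moved the median of all genes to 0.83 in the knockout over time, to -0.78 between genotypes at 0 h and to 0.72 for the difference of responses. The summed FPKM of the knockout at 0 h was 1604981, of which 68.9% lay in small RNA, ribosomal RNA, pseudogene and predicted loci. The other 3 libraries had sums between 753591 and 923195, with 29.3% to 42.8% in such loci.

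Among the actins, the 2 isoforms expressed in most cells were far apart in level. Actb (chromosome 5, 142903115 to 142907976, GRCm38), which encodes beta-actin, stood at 1039 FPKM in wild type at 0 h and 1180 at 24 h, and at 1384 and 1379 in Chd7-/- cells. Both knockout libraries were above both wild-type libraries. Its log2 ratio of knockout to wild type was 0.41 ± 0.022 at 0 h and 0.22 ± 0.020 at 24 h. After each library was centred on its median gene the ratios were 0.45 and 0.29, whereas TPM turned the 0 h value to -0.38. Over time its ratio was 0.18 in wild-type cells and -0.00 in Chd7-/- cells, the latter becoming 0.11 with median-centred libraries and 1.09, past the 2-fold limit, under TPM.

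Actb lies on a chromosome whose genes were shifted together. Small RNA, ribosomal RNA, pseudogene and predicted loci were left out of this count. Of 531 other measured genes on chromosome 5, 507 (95.5%) were above 0 in Chd7-/- cells against wild type at 0 h. Among all measured genes outside such loci, 34.4% were. The chromosome 5 genes had a median log2 ratio of 0.40 and quartiles of 0.28 and 0.50. At 24 h 481 (90.6%) were above 0, with a median of 0.34. Relative to these neighbours Actb was 0.01 higher at 0 h and 0.12 lower (log2 ratio -0.12) at 24 h. Over time the chromosome 5 median was -0.09 in wild-type cells and -0.14 in Chd7-/- cells, close to that of all genes. The shift included the other actin genes on that chromosome, and a change of scaling moves them together with all genes. Of the 89 measured genes of the actin lists below, 8 lie there, namely Actb, Wdr1, Coro1c, Arpc1a, Arpc1b, Arpc3, Pxn and Rac1, and on the FPKM scale all 8 were above 0 at both times. Their ratios at 0 h ran from 0.33 for Wdr1 to 0.64 for Arpc1a, and at 24 h from 0.01 for Arpc1b to 0.77 for Arpc1a. Of the 79 on other chromosomes with a known position, 20 were above 0 at each time. This split by chromosome was made after the values were seen.

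**Figure D2:**
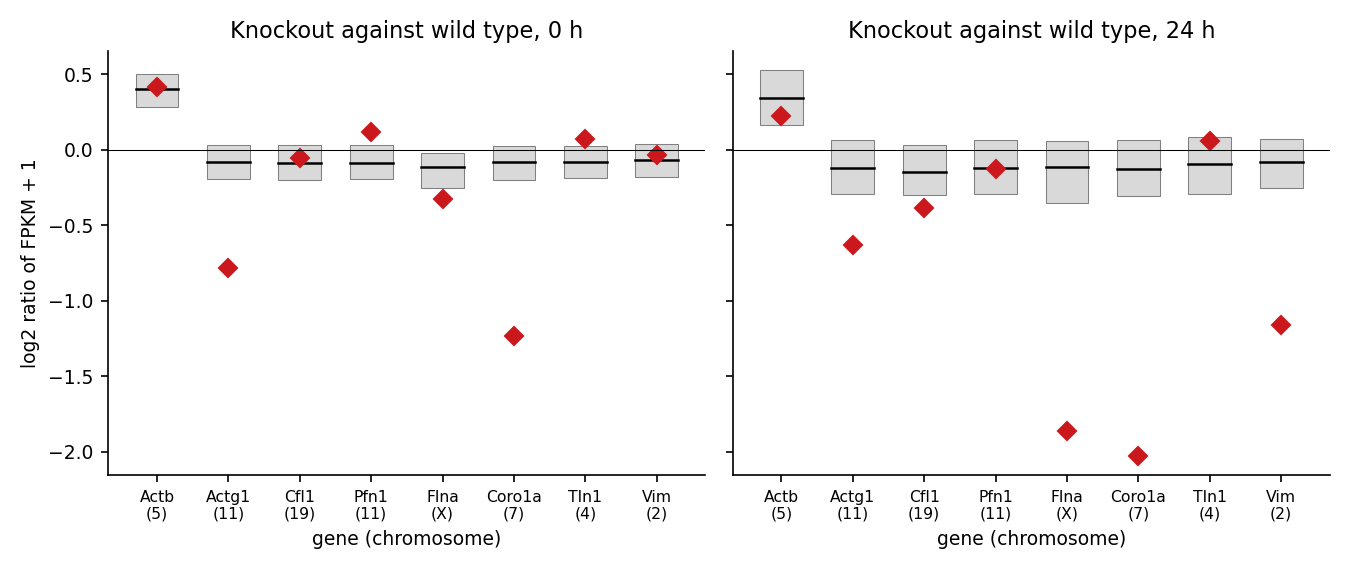
Log2 ratio of knockout to wild type (FPKM + 1) for the 8 measured genes (red diamonds) at 0 h and 24 h, over the median (line) and quartiles (box) of the other measured genes on the same chromosome. Actb lies within the raised box of chromosome 5, while Coro1a lies far below the box of chromosome 7 at both times. Boxes leave out small RNA, ribosomal RNA, pseudogene and predicted loci.

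Actg1 (chromosome 11, 120345687 to 120348495), which encodes gamma-actin, was at 25.3 FPKM in wild type at 0 h and 18.2 at 24 h, and at 14.3 and 11.4 in Chd7-/- cells. Both knockout libraries were below both wild-type libraries, opposite to Actb. Its log2 ratio of knockout to wild type was -0.78 ± 0.17 at 0 h and -0.63 ± 0.18 at 24 h, short of the 2-fold limit, while TPM gave -1.52 and -0.59. Over time its ratio was -0.45 ± 0.15 in wild-type cells and -0.30 ± 0.20 for the knockout, and TPM turned the latter to 0.71. Within each library Actg1 made up 2.43% and 1.55% of the Actb level in wild-type cells at 0 and 24 h, and 1.03% and 0.827% in Chd7-/- cells. The summed level of both genes was 1064 and 1198 FPKM in wild-type cells and 1398 and 1390 in Chd7-/- cells, so the sum followed Actb. The Actg1 values are uncertain, because 56.7% of the 50-base stretches of its transcript recur in 22 other annotated genes, among them the predicted loci Gm12715 (51.1%) and Gm8399 (35.6%). For Actb the share was 14.2% over 18 genes, and how reads with several matches were counted is not given in the sources used here. Of the 4 muscle actins listed, none was measured.

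Pfn1 and Cfl1, the abundant monomer binders, had high levels in every library. Pfn1 (chromosome 11, 70651844 to 70656799), profilin 1, was at 297.5 and 298 FPKM in wild-type cells at 0 and 24 h and at 323 and 273 in Chd7-/- cells. Wild-type values were nearly equal, and the knockout library at 24 h was the lowest. Its log2 ratio over time was 0.00 ± 0.069 in wild-type cells and -0.24 ± 0.071 in Chd7-/- cells, where TPM gave 0.84. Cfl1 (chromosome 19, 5490455 to 5494031), cofilin 1, was at 465 and 408 FPKM in wild-type cells and 447 and 312 in Chd7-/- cells. The 24 h libraries were below the 0 h libraries, and the knockout at 24 h was lowest. Its ratio over time was -0.19 ± 0.031 in wild-type cells and -0.52 ± 0.035 in Chd7-/- cells, a difference of -0.33 ± 0.047. With median-centred libraries these were -0.10, -0.40 and -0.31, and TPM gave 0.05, 0.57 and 0.52. Some 9.11% of its 50-base stretches recur in 3 other genes.

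Ratios taken within a library do not depend on the scaling between libraries. Cfl1 against Pfn1 was 1.56 in wild type at 0 h and 1.37 at 24 h, and 1.38 and 1.14 in Chd7-/- cells. Cfl1 against Dstn, which encodes the related severing protein destrin, was 15.3 and 9.34 in wild-type cells and 17.9 and 7.25 in Chd7-/- cells. In both genotypes the 24 h library had the lower value of each ratio. Pfn1 made up 28.6% and 25.2% of the Actb level in wild-type cells and 23.4% and 19.8% in Chd7-/- cells.

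Thymosin genes were at or near 0. Tmsb4x (chromosome X, 167207093 to 167213479), thymosin beta-4, was listed at 0 in both wild-type libraries and at 0.256 and 0.477 FPKM in the knockout at 0 and 24 h. The last pair is worth about 2.28 and 4.54 fragments, so no fold is given. Its relative Tmsb10 was at 0.653 and 1.33 FPKM in wild-type cells and listed at 0 in both knockout libraries. A listed 0 can be a failed estimate in an FPKM table. No 50-base stretch of the Tmsb4x transcript recurs in another annotated gene.

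Flna carried the largest differences of the set over time. Flna (chromosome X, 74223461 to 74249854) encodes filamin A, the large dimeric crosslinker that joins actin filaments at wide angles and anchors them to membrane receptors. It stood at 62.9 FPKM in wild type at 0 h and 22.3 at 24 h, and at 50.03 in the knockout at 0 h and 5.39 at 24 h. The 0 h libraries were close in FPKM, both 24 h libraries were lower, and the knockout at 24 h was far below the rest. In FPKM it was 2.82-fold lower at 24 h in wild-type cells and 9.28-fold lower in Chd7-/- cells. The log2 ratios were -1.46 ± 0.056 and -3.00 ± 0.095, and the difference of responses was -1.54 ± 0.11. Between genotypes the ratio was -0.33 ± 0.046 at 0 h and -1.87 ± 0.099 at 24 h, when the knockout was 4.14-fold lower in FPKM. About 8120 fragments lay behind the wild-type value at 0 h and 735 behind the knockout value at 24 h, and no 50-base stretch recurs elsewhere.

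With small RNA, ribosomal RNA, pseudogene and predicted loci left out, 8367 genes were measured. Flna had the 4th lowest ratio over time in Chd7-/- cells among them and the 5th lowest difference of responses. Over all 8964 measured genes these ranks were 15th and 27th. All 4 between-time and between-genotype values kept their direction under every scaling tried, but the difference of responses was -0.75 under TPM and so missed the 2-fold limit. TPM also gave -1.98 over time for the knockout and, between genotypes at 0 h, -1.10, past the limit. Within each library, Flna against Tln1 was 1.38 and 0.446 in wild-type cells and 1.04 and 0.103 in Chd7-/- cells. Against Actn4, the crosslinker alpha-actinin 4, it was 2.28 and 0.864 in wild-type cells and 2.04 and 0.175 in Chd7-/- cells. With either partner, the 24 h ratio was a smaller share of the 0 h ratio in the knockout libraries.

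Lcp1 (chromosome 14, 75131105 to 75230842), which encodes the blood-cell bundling protein L-plastin, was barely present. It was at 0.373 and 0.313 FPKM in wild-type cells and at 0.341 and 0.168 in Chd7-/- cells. These values rest on about 21.5, 21.5, 19.4 and 10.2 fragments, and 7.46% of its 50-base stretches recur in 2 other genes. The knockout at 24 h was lowest, with a log2 ratio over time of -0.20 ± 0.21, not distinguishable from 0 at this depth. The other plastins were listed at 0 (Pls3) or at no more than 0.0182 FPKM (Pls1).

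Coro1a differed between genotypes before estradiol as well as after it. Coro1a (chromosome 7, 126699774 to 126704816) encodes coronin 1A, the coronin of blood cells. It was at 30.2 FPKM in wild type at 0 h and 17.6 at 24 h, and at 12.3 and 3.57 in Chd7-/- cells. Each knockout library was below both wild-type libraries, and the wild type at 24 h was still above the knockout at 0 h. The log2 ratio of knockout to wild type was -1.23 ± 0.18 at 0 h and -2.03 ± 0.26 at 24 h, the 7th lowest of the 8367 genes. Over all 8964 measured genes the 24 h ratio was the 23rd lowest. In FPKM the knockout was 2.46-fold and 4.93-fold lower. Over time the ratio was -0.74 ± 0.16 in wild-type cells and -1.54 ± 0.28 in Chd7-/- cells, where TPM gave -0.59, and the difference was -0.80 ± 0.32. The difference was -0.37 with 5 FPKM added and -0.077 under TPM. Coro1b, the most abundant coronin, ran from 48.05 to 60.4 FPKM, and Coro1a against Coro1b was 0.566 and 0.292 in wild-type cells and 0.256 and 0.0680 in Chd7-/- cells.

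Tln1 (chromosome 4, 43531513 to 43562583), talin 1, varied least in FPKM by the ratio of highest to lowest library among the measured genes of the set. It was at 45.5 and 50.03 FPKM in wild-type cells and at 47.9 and 52.1 in Chd7-/- cells, its highest library being 1.14 times its lowest. The log2 ratio over time was 0.13 ± 0.048 in wild-type cells and 0.12 ± 0.048 in Chd7-/- cells. The difference of responses was -0.01 ± 0.068, and 0.01 with median-centred libraries. The rank as least varying was taken on the FPKM scale only. With median-centred libraries, Pfn1 had smaller ratios over time than Tln1, at 0.094 in wild-type cells and -0.13 in Chd7-/- cells. The likeness of the Tln1 responses in both genotypes held on the FPKM scale and with median-centred libraries (0.23 over time in each). It also held with an equal sum without small and predicted loci, at 0.07 in wild-type cells and 0.10 in Chd7-/- cells. It did not hold under TPM. TPM gave 1.19 over time for the knockout, past the 2-fold limit, 0.81 for the difference and -0.71 between genotypes at 0 h.

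Vim (chromosome 2, 13574311 to 13582826), which encodes vimentin, differed between genotypes at 24 h but, on the FPKM scale, not visibly at 0 h. It was at 8.00 FPKM in wild type at 0 h and 3.17 at 24 h, and at 7.76 and 0.865 in Chd7-/- cells. The 0 h libraries nearly coincided in FPKM, and both 24 h libraries were lower. Its log2 ratio over time was -1.11 ± 0.25 in wild-type cells and -2.23 ± 0.29 in Chd7-/- cells. The difference of responses was -1.12 ± 0.39, the 15th lowest of the 8367 genes and the 40th lowest of all 8964 measured genes. Between genotypes the ratio was -0.04 ± 0.23 at 0 h and -1.16 ± 0.31 at 24 h. At this level the added 1 FPKM matters. In FPKM alone Vim was 2.52-fold lower over time in wild-type cells, 8.97-fold lower in Chd7-/- cells and 3.67-fold lower in the knockout than in wild type at 24 h. With 5 FPKM added, the wild-type ratio was -0.67, the ratio between genotypes at 24 h -0.48 and the difference -0.45. TPM gave -0.93 for the wild-type ratio over time and -0.51 for the difference, both short of 2-fold. Between genotypes at 0 h TPM gave -0.73, so the likeness of the 0 h libraries depended on scaling. Against Lmna, the lamin A/C gene, Vim was 9.56% and 1.93% in wild-type cells and 10.7% and 0.538% in Chd7-/- cells. Against Des, the desmin gene, it was 2.19 and 1.18 in wild-type cells and 1.93 and 0.269 in Chd7-/- cells.

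**Figure D3:**
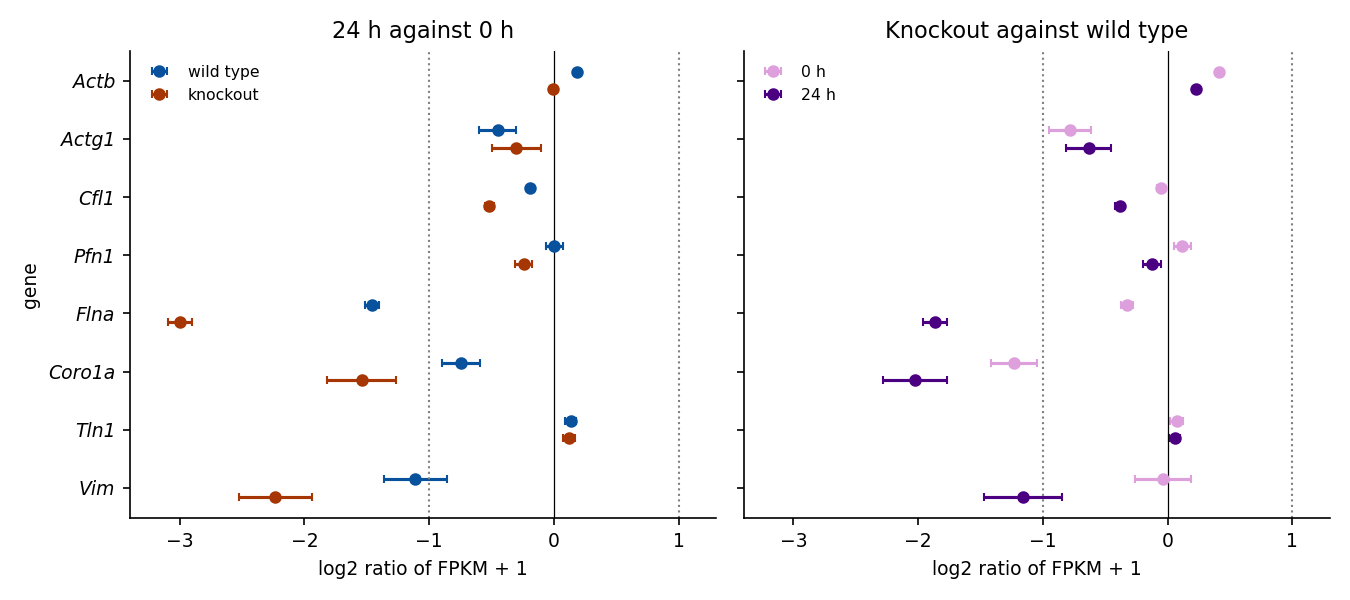
Log2 ratios of FPKM + 1 for the 8 measured genes, over time in each genotype (left) and between genotypes at each time (right), with bars for the 95% counting interval and dotted lines at 2-fold. Flna reaches -3.00 over time in the knockout and Coro1a -2.03 between genotypes at 24 h, while Tln1 stays within 0.14 of 0.

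**Figure D4:**
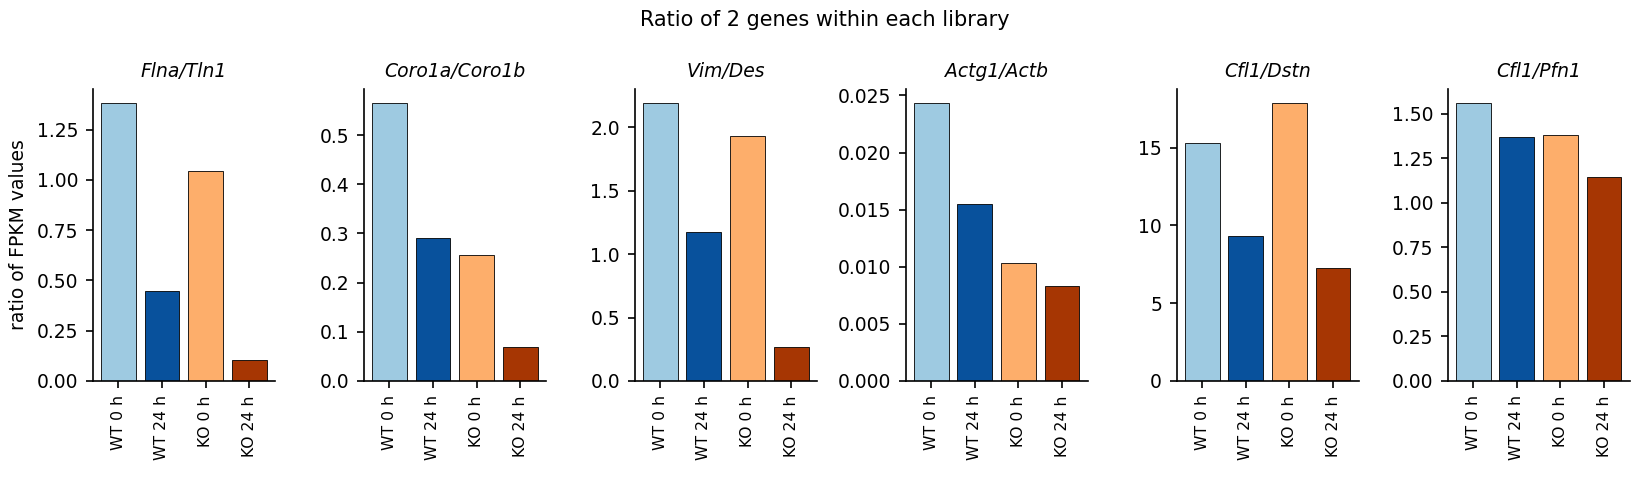
Ratio of FPKM between a pair of genes within each library, for WT (wild type) and KO (knockout) at 0 and 24 h. Flna against Tln1 is 1.38 at 0 h and 0.446 at 24 h in wild type, with 1.04 and 0.103 for the knockout, and Actg1 against Actb is lowest in the knockout at 24 h.

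Other genes of the actin cytoskeleton were taken from 16 lists by role, which overlap the 10 genes, and 89 of their members were measured. Over time in wild-type cells 2 were higher and 3 lower, and in Chd7-/- cells 5 were higher and 10 lower. Between genotypes none was higher and 3 were lower at 0 h, and 1 was higher and 5 lower at 24 h. Without the 8 genes above, 81 remained, with 2 higher and 1 lower in wild-type cells, and 5 higher and 7 lower in Chd7-/- cells. Between genotypes these 81 gave 0 higher and 2 lower at 0 h, and 1 higher and 2 lower at 24 h. Their medians were -0.13 over time in wild-type cells, -0.15 in Chd7-/- cells, -0.09 between genotypes at 0 h and -0.10 at 24 h. Each was within 0.04 of that of all genes. Over all measured genes 1.86% were called higher and 1.06% lower over time in wild-type cells, and 3.38% and 3.64% in Chd7-/- cells. Between genotypes the shares were 0.435% and 0.647% at 0 h, and 0.714% and 1.14% at 24 h. Since the 89 include the 8 genes chosen on these contrasts, nothing is read from the counts.

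Outside the 10-gene set, Dmtn and Gsn were called higher at 24 h in both genotypes, and Daam1, Tmod3 and Lmna in the knockout libraries. Dmtn, dematin, went from 0.238 to 4.99 FPKM in wild-type cells and from 0.168 to 11.9 in Chd7-/- cells. Its log2 ratios were 2.28 and 3.47, its ratio of knockout to wild type at 24 h was 1.11, and its difference of responses of 1.19 was the only one of the 81 past 2-fold. Gsn, the severing protein gelsolin, went from 1.91 to 10.5 FPKM in wild-type cells and from 2.65 to 9.79 in Chd7-/- cells, log2 ratios of 1.99 and 1.56. Tmod3, a tropomodulin that caps pointed filament ends, was called in Chd7-/- cells (14.2 to 33.5 FPKM, 1.18) and had a ratio of 0.66 in wild-type cells. Daam1, a formin, behaved alike, with 1.18 in Chd7-/- cells and 0.68 in wild-type cells. Tmod1, another tropomodulin, averaged below 1 FPKM, at 0.791 and 1.89 in wild-type cells and 0.204 and 0.292 in Chd7-/- cells. Lmna, a lamin of the nuclear envelope, stood at 83.7 and 164 FPKM in wild-type cells and 72.8 and 161 in Chd7-/- cells, with ratios of 0.97 and 1.13 on either side of the limit.

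Another 7 genes were called lower at 24 h in Chd7-/- cells. Tagln2, a transgelin, went from 129 to 58.1 FPKM (-1.14) there and had a ratio of -0.52 in wild-type cells. Capg, a capping protein of the gelsolin family, went from 29.6 to 12.4 FPKM (-1.20) in Chd7-/- cells against -0.29 in wild-type cells, and at 24 h its ratio of knockout to wild type was -1.34. Msn, the membrane linker moesin, had ratios of -1.13 in Chd7-/- cells and -0.70 in wild-type cells. Coro2a (-1.02), Twf2 (-1.08), a twinfilin that binds monomers, and Lasp1 (-1.01) were each just past the limit in Chd7-/- cells, and Abi2, a WAVE complex subunit, was called in both genotypes (-1.03 in wild-type cells, -1.34 in Chd7-/- cells). No difference of responses among these 7 genes reached 2-fold, the nearest being -0.90 for Capg.

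Between genotypes at 0 h, Nckap1l, the blood-cell subunit of the WAVE complex, was at 1.98 FPKM in wild-type cells and 0.283 in Chd7-/- cells (-1.22), and at 24 h at 2.28 and 0.172 (-1.48). Marcksl1, a membrane-bound actin crosslinker, was at 2.85 and 0.718 FPKM at 0 h (-1.16). Like Coro1a, both were lower in the knockout at both times, although Marcksl1 (-0.93) missed the limit at 24 h.

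Several groups had no call in any comparison. All 9 genes of the Arp2/3 complex, which nucleates branched filaments, were measured and none was called. Their summed level ran from 1063 to 1147 FPKM, and Arpc1b was the most abundant at 277 and 320 FPKM in wild-type cells and 355 and 321 in Chd7-/- cells. Of these genes, the 3 on chromosome 5 had a median log2 ratio between genotypes of 0.40 at 0 h and the other 6 one of -0.12. Myosin II and its kinases (6 of 10 measured, Myl6 highest) and talin with its adhesion adaptors (9 of 20, Vasp highest) likewise had none. Srf, the CArG-binding factor, was at 8.37 and 6.99 FPKM in wild-type cells and 8.16 and 6.32 in Chd7-/- cells, ratios over time of -0.23 and -0.32. The measured tubulins and stathmin (10 of 13) held calls for Tubb1, Tubb2a and Tuba4a. Tubb1, a tubulin of platelets and their precursors, was at 0.0347 and 1.57 FPKM in wild-type cells, and in Chd7-/- cells it was listed at 0 at 0 h and stood at 3.17 at 24 h. Ratios over time were 1.63 for Tubb2a and 1.39 for Tuba4a in the knockout libraries, beside 0.83 and 0.66 for wild type, and Tubb2a was higher in the knockout at 24 h (1.15).

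**Figure D5:**
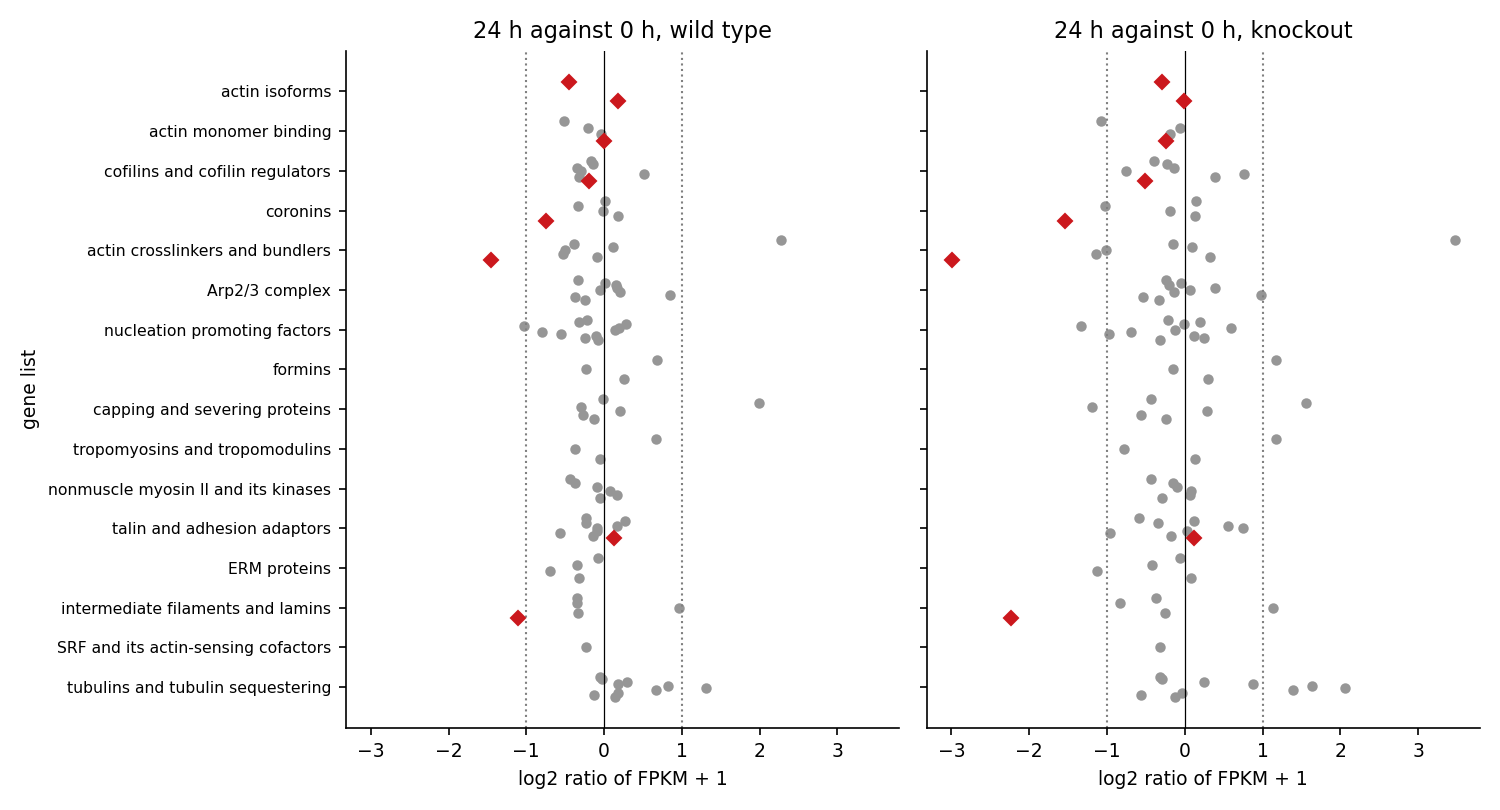
Log2 ratio of FPKM + 1 from 0 h to 24 h for the measured genes of lists by role, in wild type (left) and the knockout (right), with 1 point per gene, the 10-gene set in red and dotted lines at 2-fold. Flna is the lowest point in both panels (-1.46 and -3.00), Dmtn the highest (2.28 and 3.47), and the Arp2/3 complex stays inside the lines.

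For the 3 genes with calls, the genes nearest in pattern were taken from 6397 candidates with a mean of at least 5 FPKM. Likeness was the Euclidean distance between the 4 log2(FPKM + 1) values, each gene centred on its own mean. Nearest to Flna were Nab2 (0.60), Tspan4 (0.60), Gata2 (0.72), Spn (0.84) and Car1 (0.84). Gata2, a GATA factor of early progenitors, was at 21.9 and 5.53 FPKM in wild-type cells and 22.99 and 2.40 in Chd7-/- cells. Nearest to Vim were Spn (0.19), Slc9a3r1 (0.22), Ptprcap (0.26), Ptprs (0.28) and Nab2 (0.31). Spn, the sialoglycoprotein CD43, was at 89.8 and 44.6 FPKM in wild-type cells and 79.4 and 18.4 in Chd7-/- cells. The lists of Flna and Vim share Nab2 and Spn. Nearest to Coro1a were Acap1 (0.49), Ifitm2 (0.52), Crip1 (0.55), Spint2 (0.63) and Rcor2 (0.68). Each was lower in the knockout at both times, which the choice by likeness to Coro1a favours.

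Cell type markers describe the libraries behind these values. All 8 erythroid markers were measured. Their summed level was 812 FPKM at 0 h and 10156 at 24 h in wild-type cells, and 1028 and 16945 in Chd7-/- cells. Hbb-b1 alone was at 7865 FPKM in wild-type cells and 13127 in Chd7-/- cells at 24 h. Over time 5 of the 8 markers were called higher in wild-type cells and 6 in Chd7-/- cells. Between genotypes at 24 h, 1 was called higher (Alas2, 1.07) and 1 was below 0 (Epor, -0.06). The summed mast cell and basophil markers moved in the direction of Flna and Vim over time. Of 9, 4 were measured and Mcpt8 was listed at 0. Cpa3, Ms4a2 and Il1rl1 were called lower at 24 h in both genotypes, while Hdc had log2 ratios over time of 0.57 in wild-type cells and 0.26 in Chd7-/- cells, higher at 24 h but short of 2-fold. The sum was 38.0 and 7.57 FPKM in wild-type cells and 66.7 and 5.36 in Chd7-/- cells, with Il1rl1, the highest on average, at 17.2 and 3.47 in wild-type cells and 19.6 and 1.45 in Chd7-/- cells. Between genotypes at 0 h, Cpa3 (1.07) and Ms4a2 (1.18) were called higher in the knockout, and Hdc (0.74) and Il1rl1 (0.18) were higher short of 2-fold. Flna and Vim were at -0.33 and -0.04 there. The part of these markers in the results was not tested. Myeloid markers (2 of 9 measured, with Mpo, Elane, Prtn3 and Ctsg listed at 0) summed to between 5.78 and 11.4 FPKM. Of the 2, Cebpe had log2 ratios over time of 1.03 in wild-type cells, called higher, and 0.46 in Chd7-/- cells. Lyz2 had -0.87 in wild-type cells and -1.22 in Chd7-/- cells, the latter called lower. Megakaryocyte markers (2 of 9, with Vwf and Ppbp listed at 0) summed to between 4.58 and 6.55. Pf4 was past 2-fold in the difference of responses (-1.09), with ratios over time of 0.12 in wild-type cells and -0.97 in Chd7-/- cells. Gp9, the other measured one, had 0.80 and 0.74 over time and a difference of -0.06. All 7 stromal markers were listed at 0 in the 4 libraries, as were 6 of 7 lymphoid markers. Cd3g, the other lymphoid marker, was at 2.02 and 1.31 FPKM in wild-type cells and 0.301 and 0.0702 in Chd7-/- cells, the order of Coro1a, and its part was not tested. Chd7 was listed at 0 in all 4 libraries, so its row does not check the genotype labels.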

How the data were processed

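RNA was measured in 4 libraries, grouped by the genotype and time in their titles. The authors deposited FPKM, 1 value per gene symbol and library. FastQC, cutadapt, TopHat2 2.0.11, Cufflinks 2.2.1 and the build GRCm38 are named per the submitters' processing notes. The sources used here give neither the annotation nor how reads with several matches were handled or libraries scaled to each other.

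Ratios of FPKM + 1 were computed for 8964 genes whose mean reached 1 FPKM and called at 2-fold. With 1 library per group there was no test. Depth was approximated from the FPKM steps of genes with 1 transcript of at least 3 kb, at an assumed fragment length of 200. Between 66.2% and 72.6% of low values were whole fragments within 0.1, so no count test was run. Chance gives 20% at a fixed depth. The depth used was the one with the best fit, so 20% is not the chance level for it. Intervals cover counting error only.

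The members and gene lists were chosen with earlier results of these data known. Genes named are all 10 members, listed genes past 2-fold, the most abundant gene of lists, and the 5 nearest patterns per called member. Others (Actn4, Dstn, Des, Tmsb10, Tmod1, Epor, the other plastins, Chd7, and the genes of chromosome 5) were chosen after their values were seen. Formins listed under older symbols were matched to them. Positions and 50-base stretches come from GENCODE M21 or RefSeq, both on GRCm38. Settings tried were pseudocounts of 0.1 and 5 FPKM, 2 filters and 4 scalings. The values without chromosome 5 were added after the data were seen. Python 3.11.15, numpy 2.4.6, pandas 2.3.3 and matplotlib 3.10.9 were used, and the depth step was tested on simulated whole counts. A few results for listed genes are not reported here.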

Additional observations from a re-analysis of the deposited data

How the results depend on the processing

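Flna kept its 2-fold calls over time in both genotypes and between genotypes at 24 h under all 8 settings, as did Coro1a between genotypes at both times. The 2 filters leave the ratio of a gene unchanged, so only the pseudocounts and scalings could move these calls. Scaling to an equal sum (TPM) moved the most. It left 1 gene lower over time in wild type with a median of -0.083, and in the knockout it made 2 genes (Actb and Tln1) higher with a median of 0.64. Under TPM 3 genes were lower between genotypes at 0 h with a median of -0.79, and for the difference of responses 0 were lower with a median of 0.56. A pseudocount of 5 FPKM left 1 gene lower in wild type and 1 in the difference of responses, and so did a mean of at least 5 FPKM, which removes Vim. That filter gave medians of -0.19 over time in wild type and -0.30 in Chd7-/- cells, and -0.38 between genotypes at 24 h. With no filter they were -0.13, -0.27 and -0.28. Median-centred libraries gave -0.23 over time in wild type and -0.30 in Chd7-/- cells, and upper-quartile scaling -0.25, -0.30 and, between genotypes at 24 h, -0.42. An equal sum without small and predicted loci gave -0.39 in wild type, 0.031 between genotypes at 0 h and -0.40 at 24 h. Without chromosome 5 genes, the median of the Arp2/3 genes between genotypes went from 0.02 to -0.12 at 0 h and from -0.14 to -0.20 at 24 h. No paired analysis was possible because each group has 1 library. Depth limits Lcp1 and Tmsb4x, which rest on few fragments, and no culture-to-culture error could be estimated for any gene.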
